A study of Arabidopsis thaliana with 18 samples.

Results

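The quantity described here is a difference of differences. It is the margin minus center difference in RNA level in leaf 5 of the Arabidopsis thaliana mutant tcp2tcp4, minus the same difference in the wild type Col-0. It was measured in 12 of the 18 RNA-seq libraries of the study, chosen by their labels of genotype and compartment: 3 of tcp2tcp4 margin, 3 of tcp2tcp4 center, 3 of Col-0 margin and 3 of Col-0 center. The other 6 libraries are the margin and center of tcp2tcp3tcp4tcp10, in which TCP3 and TCP10 are mutated as well. Below, this value is called the interaction and is given on the log2 scale ± its SE. A value above 0 means that the gene stood higher in the margin, against the center of its own genotype, in tcp2tcp4 than in Col-0.

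All lines were raised at 23 °C under days of 16 h light and 8 h dark, for 5 days on plates and then in soil. Leaf 5 was collected at the time leaf 7 emerged, at Zeitgeber time 6. It was divided on a cooled plate into a margin and a center portion, and each library pooled the portions of 15 to 20 plants. The lines were moved to the greenhouse 2 days apart, tcp2tcp3tcp4tcp10 first and Col-0 last, so the age of the plants and their genotype cannot be told apart. Neither the mutant alleles nor the width of the margin portion was given in the sources used here. In pooled tissue, fewer cells of a type and less RNA per cell cannot be told apart.

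TCP2, TCP3, TCP4, TCP10 and TCP24 are transcription factors of the CIN class whose transcripts are cut under the direction of the microRNA miR319. They are known to end cell proliferation and to promote maturation as a leaf grows, and leaves that lack several of them keep dividing longer, most visibly along the edge, and become crinkled. In wild-type leaves cell division stops earlier towards the tip than towards the base. The interaction asks whether the loss of TCP2 and TCP4 changed the margin and the center of the leaf unequally.

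Reads counted in genes numbered 5.93 M to 11.21 M in the 12 libraries. Of these libraries, tcp2tcp4 margin 3 stood apart with 15.96% of its reads aligned to several places, and Col-0 margin 1 followed with 8.598%, against 4.276% to 4.972% in the other 10. The same libraries had the highest shares of gene reads from chloroplast loci, 0.2093% and 0.1035%. Results were therefore also computed without both. Margin and center libraries of the same genotype and number deviated together, so that a second fit used the leaf pool, 9 pools in all 18 libraries, as a block. The blocked counts stand beside the others below.

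The labels were checked on known genes. NGA1, a transcription factor gene of the leaf edge, averaged 18.9 ± 1.84 CPM in tcp2tcp4 margin against 4.43 ± 1.18 CPM in tcp2tcp4 center, and 25.5 ± 2.31 CPM in Col-0 margin against 8.77 ± 0.974 CPM in Col-0 center (SD, n = 3 each). CPM are reads of a gene scaled to a common library size, with TMM factors. NGA1 is 1 of 8 tested members of the list of margin and lamina outgrowth genes. The median margin minus center difference of that list was 0.51 in tcp2tcp4 and −0.05 in Col-0 (log2). Its member ANT had −0.40 ± 0.12 in Col-0 (adjusted p = 0.0357) and 0.04 ± 0.11 in tcp2tcp4. The list as a whole therefore does not check the compartment labels. For the mutated genes, TCP2 stood at 10.7, 9.96 and 11.7 CPM in tcp2tcp4 margin and at 7.04, 8.78 and 9.01 CPM in tcp2tcp4 center, against 63.5, 60.8 and 65.9 CPM in Col-0 margin and 63.7, 66.4 and 65.7 CPM in Col-0 center. TCP4 had 19.9, 19.1 and 22.6 CPM in tcp2tcp4 margin and 13.1, 17.7 and 14.3 CPM in tcp2tcp4 center, against 115, 99.8 and 114 CPM in Col-0 margin and 80.7, 73.2 and 83.7 CPM in Col-0 center. Both transcripts were lower in every tcp2tcp4 library than in every Col-0 library.

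None of the 5 miR319-regulated TCP genes was called in the interaction, by edgeR, by edgeR with the block or by DESeq2, and 1 of them, TCP2, had an unadjusted p under 0.05. Of all loci tested, 6.22% had such a p with a value above 0 and 5.6% with a value below 0, and DESeq2 called 0.529% higher and 0.208% lower. TCP4 was higher in margin than in center of both genotypes, by 0.44 ± 0.13 in tcp2tcp4 and by 0.47 ± 0.09 in Col-0 (log2), and its interaction was −0.02 ± 0.16 (adjusted p = 0.982). For TCP2 the interaction was 0.40 ± 0.13 (adjusted p = 0.233). TCP10, which is intact in tcp2tcp4, averaged 91.6 ± 11.3 CPM in tcp2tcp4 margin and 63.3 ± 5.15 CPM in its center, against 80.0 ± 1.49 CPM in Col-0 margin and 61.5 ± 4.24 CPM in Col-0 center, with an interaction of 0.14 ± 0.13 (adjusted p = 0.712). TCP24 had −0.07 ± 0.10 (adjusted p = 0.842), and TCP3, at 1.98 to 3.03 CPM in the group means, had −0.68 ± 0.42 (adjusted p = 0.557). TCP3 overlaps another gene, so its reads are uncertain.

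At an adjusted p under 0.05, 78 of 17763 loci tested (0.439%) were called in the interaction, 59 of them higher (0.332%) and 19 lower (0.107%), with 24 and 4 at least 2-fold. The fit with leaf pools blocked called 1347 loci (7.58%), 708 higher (3.99%) and 639 lower (3.6%), with 78 and 42 at least 2-fold. All 78 were called with the block too. The shares of all loci given here are the background for the counts of called list members below. For comparison, margin and center differed at 1334 loci (7.51%) in tcp2tcp4 and at 2030 loci (11.4%) in Col-0, and the genotypes differed at 2513 loci (14.1%) in the margin and at 1093 loci (6.15%) in the center. Without the libraries tcp2tcp4 margin 3 and Col-0 margin 1 there were 60 calls, 43 higher and 17 lower.

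Most calls had a margin to center difference called in Col-0, and fewer had one called in tcp2tcp4. Of the 59 loci called higher, it was called at 56 in Col-0 and at 17 in tcp2tcp4. Of the 19 called lower, it was called at 16 in Col-0 and at 7 in tcp2tcp4. FLA11 was the reverse, with −0.69 ± 0.08 in tcp2tcp4 (adjusted p = 7.72e-06) and −0.11 ± 0.08 in Col-0 (adjusted p = 0.518). Of the 59 loci called higher, 45 had differences of opposite sign in the genotypes, 13 had the same sign and a smaller difference in tcp2tcp4, and 1 had the same sign and a larger one. Their median margin minus center difference was 0.14 in tcp2tcp4 and −0.78 in Col-0. Seen the other way, their median genotype difference was 0.80 in the margin and −0.12 in the center. The 19 loci called lower mirrored this, with medians of −0.24 in tcp2tcp4 and 0.47 in Col-0, and genotype differences of −0.60 in the margin and 0.12 in the center. These medians describe loci chosen by the interaction itself.

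**Figure D1:**
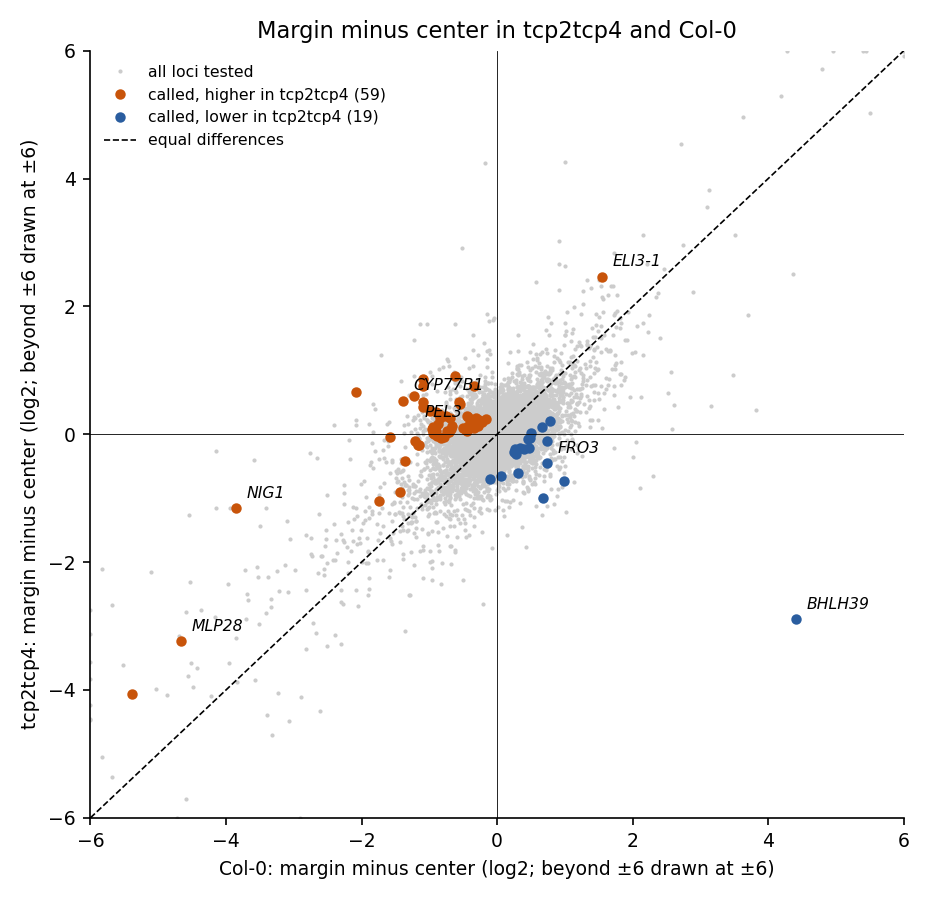
Margin minus center difference (log2) of each locus tested, in tcp2tcp4 on the vertical axis and in Col-0 on the horizontal axis, with the 59 loci called higher in orange, the 19 called lower in blue and the line of equal differences dashed. Most orange points lie left of 0 at a height near 0, and most blue points lie right of 0 and close to it, while ELI3-1 and MLP28 differ strongly between margin and center in both genotypes.

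Genes of cell division had interactions above 0. The list of mitosis and cytokinesis genes held 36 loci, all tested, and all 36 had an interaction above 0, between 0.34 and 1.52 with a median of 0.72, while the median of all loci tested was −0.01 and 48.5% of them lay above 0. Of the 36, 4 were called higher and none lower. With the block 25 were called higher and none lower, against 21 when the pools tcp2tcp4 3 and Col-0 1 were left out. DESeq2 called 9 higher. The median margin minus center difference of the list was 0.03 in tcp2tcp4 and −0.72 in Col-0. Summed over the list, the level was 510 to 630 CPM in tcp2tcp4 margin and 492 to 685 CPM in tcp2tcp4 center, against 358 to 385 CPM in Col-0 margin and 584 to 678 CPM in Col-0 center. The Col-0 margin libraries thus lay below all others and the other 3 groups overlapped.

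CYCB1;1 encodes a B-type cyclin that drives entry into mitosis and was the mitosis gene with the highest interaction, 1.52 ± 0.29 (adjusted p = 0.0210). Its level was 12.1, 10.4 and 8.54 CPM in tcp2tcp4 margin and 10.15, 5.30 and 8.17 CPM in tcp2tcp4 center, against 4.99, 4.76 and 3.73 CPM in Col-0 margin and 9.10, 7.68 and 12.01 CPM in Col-0 center. The 3 Col-0 margin libraries were the lowest of the 12. MAP65-3, a protein that bundles the microtubules of the phragmoplast where the new cell wall forms, stood at 26.8, 27.8 and 21.8 CPM in tcp2tcp4 margin and at 26.3, 21.0 and 22.3 CPM in tcp2tcp4 center, against 13.8, 11.5 and 16.4 CPM in Col-0 margin and 23.7, 26.3 and 26.2 CPM in Col-0 center. Again the Col-0 margin libraries lay below the other 9, and the interaction was 1.04 ± 0.17 (adjusted p = 0.0109).

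CDC20.1, an activator of the anaphase-promoting complex, averaged 41.2 ± 6.43 CPM in tcp2tcp4 margin and 35.3 ± 8.93 CPM in tcp2tcp4 center, against 22.3 ± 3.24 CPM in Col-0 margin and 40.0 ± 5.63 CPM in Col-0 center. Its interaction was 1.1 ± 0.22 (adjusted p = 0.0271), though reads that also align to its close copy CDC20.2 may have been left out of the counts. The remaining call of the list was TPX2, a spindle assembly factor named here after its values were seen. It had 0.97 ± 0.21 (adjusted p = 0.0397) and overlaps another gene. HIK, the kinesin that activates the cytokinetic kinase cascade, and CYCB2;2, another mitotic cyclin, were also picked after their values were seen. Their interactions of 0.85 ± 0.24 and 1.36 ± 0.32 were not called without the block (adjusted p = 0.134 and 0.0579) and were called with it (adjusted p = 0.000101 and 0.000126).

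The rule also named 4 genes outside the list, grouped here after their values were seen. KINESIN-12B, a motor of the phragmoplast, averaged 24.7 ± 3.38 CPM in tcp2tcp4 margin and 24.1 ± 6.15 CPM in tcp2tcp4 center, against 12.3 ± 1.5 CPM in Col-0 margin and 24.0 ± 1.37 CPM in Col-0 center, an interaction of 1.05 ± 0.21 (adjusted p = 0.0231). DRP5A, a dynamin-related protein that acts at the cell plate, had 1.35 ± 0.24 (adjusted p = 0.0145). FZR3, an activator of the anaphase-promoting complex like CDC20.1, had 1.04 ± 0.23 (adjusted p = 0.0432). For iqd8, a calmodulin-binding IQ-domain protein, the value was 1.18 ± 0.22 (adjusted p = 0.0157). FZR3 and iqd8 each overlap another gene. In all 4 the Col-0 margin mean was the lowest of the 4 groups.

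**Figure D2:**
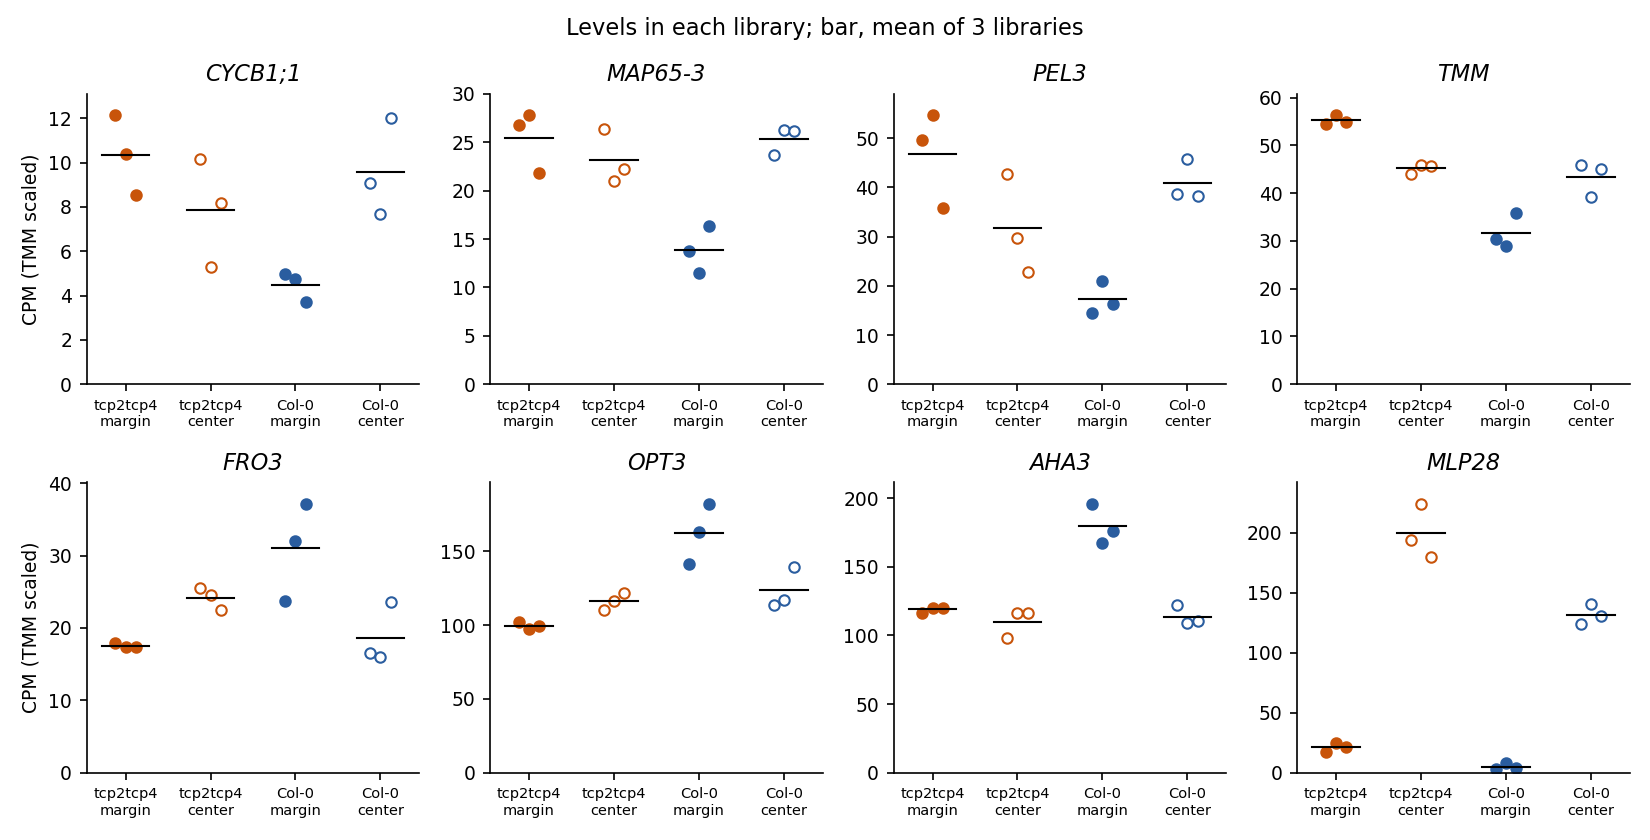
Level (CPM, scaled by TMM) of 8 genes in each of the 12 libraries, with tcp2tcp4 in orange and Col-0 in blue, margins filled, centers open and bars at the means of 3 libraries. For CYCB1;1, MAP65-3, PEL3 and TMM the Col-0 margins are the lowest group, for OPT3 and AHA3 they are the highest, and MLP28 is low in the margins of both genotypes.

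Genes expressed at G2 and mitosis often carry the motif AACGG, the core of the element bound by MYB3R factors, and since these genes moved together their promoters are shown. Each is the 250 bases before the annotated gene start in RefSeq's TAIR10.1, 5′ to 3′ on the gene's strand, with AACGG on either strand (CCGTT when read on this strand) in capitals. CYCB1;1 (minus strand, chr4:17624309-17624558) has 3 matches, MAP65-3 (minus strand, chr5:20964538-20964787) has 2, and CDC20.1 (minus strand, chr4:16046938-16047187) has none.
CYCB1;1: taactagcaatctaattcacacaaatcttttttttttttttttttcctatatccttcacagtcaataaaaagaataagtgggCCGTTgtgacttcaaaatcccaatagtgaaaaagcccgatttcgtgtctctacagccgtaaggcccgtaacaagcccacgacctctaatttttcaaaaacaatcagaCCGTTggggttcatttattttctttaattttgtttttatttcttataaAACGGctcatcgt
MAP65-3: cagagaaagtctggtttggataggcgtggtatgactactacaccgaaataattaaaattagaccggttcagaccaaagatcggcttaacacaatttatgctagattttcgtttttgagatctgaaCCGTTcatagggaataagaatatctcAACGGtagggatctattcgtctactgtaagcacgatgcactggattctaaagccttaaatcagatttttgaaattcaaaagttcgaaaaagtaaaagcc
CDC20.1: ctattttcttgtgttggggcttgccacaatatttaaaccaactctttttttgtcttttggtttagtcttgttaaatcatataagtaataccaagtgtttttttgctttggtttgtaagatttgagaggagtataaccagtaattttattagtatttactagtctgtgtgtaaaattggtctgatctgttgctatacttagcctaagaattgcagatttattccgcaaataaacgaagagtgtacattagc
A match was present in 20 of the 36 promoters of the mitosis list (55.6%), in 23 of the 59 loci called higher (39.0%) and in 6 of the 19 called lower (31.6%), against 22.4% of the promoters of all loci tested and 20.6% of all 27443 promoters of the same length. The motif GGNCCC, part of the site that TCP proteins of this class bind, was found in 3 of the 59 loci called higher (5.08%) and in 1 of the 19 called lower (5.26%). The mitosis list had it in 4 of 36 promoters (11.1%), against 8.55% of the promoters of all loci tested and 7.35% of all promoters. A match describes the letters in this window and is not a binding site.

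Genes of the earlier phases of the cycle had smaller values. Of 24 DNA replication genes none was called by edgeR or DESeq2, 11 had an unadjusted p under 0.05 with a value above 0, and the median interaction was 0.22. With the block 4 were called higher, where 3.99% of all loci were. RNR1, the large subunit of ribonucleotide reductase, had the lowest p of the list: 137 ± 6.58 CPM in tcp2tcp4 margin and 115 ± 2.14 CPM in tcp2tcp4 center, against 118 ± 2.33 CPM in Col-0 margin and 123 ± 3.05 CPM in Col-0 center, an interaction of 0.31 ± 0.07 (adjusted p = 0.0563). It passed with the block (adjusted p = 0.00101). Among 9 D-type cyclins, which drive entry into S phase, none was called without the block, 4 had an unadjusted p under 0.05 and 2 were called higher with it. CYCD3;1 had 0.45 ± 0.10 (adjusted p = 0.0520, and 0.00526 with the block), although it overlaps another gene.

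Growth regulators of the GRF and GIF families, which keep leaf cells dividing, had a median interaction of 0.33 over 10 loci. None was called by edgeR or DESeq2, 3 had an unadjusted p under 0.05 with a value above 0, and with the block GRF4 alone was called (0.66 ± 0.14, adjusted p = 0.00139). GRF4 averaged 25.1 ± 1.04 CPM in tcp2tcp4 margin and 21.8 ± 3.45 CPM in tcp2tcp4 center, against 15.9 ± 2.26 CPM in Col-0 margin and 22.1 ± 2.25 CPM in Col-0 center. The list of margin and lamina outgrowth genes had all 8 tested members above 0 with a median of 0.52, and none was called with or without the block or by DESeq2 (4 had an unadjusted p under 0.05). Its member of lowest p was ANT, a factor that prolongs organ growth, at 0.43 ± 0.16 (adjusted p = 0.285). Of 10 cell cycle inhibitors and endoreduplication genes 1 was called higher with the block, KRP7, at 0.91 ± 0.26 (adjusted p = 0.0203), and none without it or by DESeq2 (2 at an unadjusted p under 0.05). Over all loci tested, 3.99% were called higher with the block. An unadjusted p under 0.05 with a value above 0 was found at 6.22%.

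CYP77B1, a cytochrome P450, had the highest value among the called genes named by the rule, 1.92 ± 0.32 (adjusted p = 0.0110). Its level was 21.2, 20.13 and 13.8 CPM in tcp2tcp4 margin and 16.7, 12.9 and 10.6 CPM in tcp2tcp4 center, against 7.23, 5.62 and 4.74 CPM in Col-0 margin and 13.2, 14.5 and 17.9 CPM in Col-0 center. PEL3, an acyltransferase needed for cutin, had 49.6, 54.7 and 35.9 CPM in tcp2tcp4 margin and 42.7, 29.7 and 22.9 CPM in tcp2tcp4 center, against 14.5, 20.9 and 16.4 CPM in Col-0 margin and 38.7, 45.7 and 38.2 CPM in Col-0 center. For both genes the Col-0 margin libraries lay below the other 9, and the interaction of PEL3 was 1.83 ± 0.30 (adjusted p = 0.0109). CYP86A4, a fatty acid hydroxylase of cutin synthesis, averaged 12.7 ± 0.902 CPM in tcp2tcp4 margin and 7.01 ± 2.64 CPM in tcp2tcp4 center, against 5.11 ± 1.39 CPM in Col-0 margin and 8.02 ± 2.42 CPM in Col-0 center, an interaction of 1.53 ± 0.34 (adjusted p = 0.0477).

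In the list of cuticle genes the values fell on both sides of 0. Of its 14 members none was called by edgeR or DESeq2, 3 with a value above 0 and 1 with a value below 0 had an unadjusted p under 0.05, and the median was 0.01. With the block 3 were called higher and 2 lower, where 3.99% and 3.6% of all loci were. ABCG13, a transporter of cutin precursors, was the member of lowest p and had 1.26 ± 0.31 with the block (adjusted p = 0.00542), and the lower ones were CUT1, an enzyme of wax synthesis, at −0.25 ± 0.07 (adjusted p = 0.0164), and CYP86A2 at −0.24 ± 0.07 (adjusted p = 0.0230). CUT1 and CYP86A2 were named after their values were seen.

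TMM, a receptor-like protein that patterns stomata, had an interaction of 0.74 ± 0.11 (adjusted p = 0.0101). It had 54.6, 56.4 and 54.9 CPM in tcp2tcp4 margin and 44.0, 45.9 and 45.6 CPM in tcp2tcp4 center, against 30.4, 28.9 and 35.9 CPM in Col-0 margin and 45.9, 39.1 and 45.0 CPM in Col-0 center. The tcp2tcp4 margin was the highest group, the Col-0 margin the lowest, and the centers overlapped. TMM was the 1 call in the list of 15 stomatal lineage genes, all of which had values above 0, with a median of 0.29. With the block 6 were called higher and none lower, where 3.99% and 3.6% of all loci were. Without the pools tcp2tcp4 3 and Col-0 1 there were 2. Among the 6, picked after their values were seen, SPCH, the factor that starts the lineage, had 0.62 ± 0.17 (adjusted p = 0.0155) and BASL, which polarizes the dividing cells, had 1.00 ± 0.21 (adjusted p = 0.000871).

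Of 8 mature guard cell genes none was called with or without the block or by DESeq2, none had an unadjusted p under 0.05, and their median was −0.12. The summed level of these 8 was 109 to 122 CPM in tcp2tcp4 margin and 86.6 to 102 CPM in tcp2tcp4 center, against 122 to 131 CPM in Col-0 margin and 91.9 to 102 CPM in Col-0 center, higher in the margin than in the center of both genotypes. Of 12 trichome genes none was called in any of these fits, with 1 on each side of 0 at an unadjusted p under 0.05. Of all loci tested, 6.22% had such a p with a value above 0 and 5.6% with a value below 0. ROPGEF6, an activator of the ROP GTPases that shape epidermal cells, had 1.60 ± 0.29 (adjusted p = 0.0145), and EMS1, a receptor kinase known from anther development, had 1.1 ± 0.24 (adjusted p = 0.0489).

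For some genes the margin stood far below the center in both genotypes, and less so in tcp2tcp4. MLP28, a major latex protein-like gene, had 17.7, 24.4 and 21.8 CPM in tcp2tcp4 margin and 194, 224 and 180 CPM in tcp2tcp4 center, against 3.1, 7.82 and 4.02 CPM in Col-0 margin and 124, 141 and 131 CPM in Col-0 center. Its margin minus center difference was −3.23 ± 0.14 in tcp2tcp4 and −4.66 ± 0.18 in Col-0, and the interaction was 1.43 ± 0.25 (adjusted p = 0.0140). The list of boundary, KNOX and BELL genes, which mark petiole and shoot apex, was also lower in margins, at 39.6 to 46.2 CPM in tcp2tcp4 margin and 60.6 to 74.7 CPM in tcp2tcp4 center, against 34.4 to 35.7 CPM in Col-0 margin and 56.5 to 59.4 CPM in Col-0 center. Of its 16 members 6 were tested, and LOB, LAS, STM and KNAT1 had no read in the 12 libraries. Its member of lowest p, LSH10, had 1.18 ± 0.28 (adjusted p = 0.0563, and 0.00949 with the block), the list's 1 call with the block. What part this list, or center tissue in the margin portions, has in the value of MLP28 was not tested.

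ELI3-1, an alcohol dehydrogenase of the cinnamyl family named here after its values were seen, was higher in the margin than in the center of both genotypes. It had 57.3, 57.1 and 54.0 CPM in tcp2tcp4 margin and 10.6, 9.77 and 10.2 CPM in tcp2tcp4 center, against 167, 156 and 173 CPM in Col-0 margin and 58.0, 54.4 and 56.7 CPM in Col-0 center. The gene was lower in tcp2tcp4 than in Col-0 in both compartments, by −1.55 ± 0.10 in the margin and −2.46 ± 0.12 in the center, and the interaction of 0.91 ± 0.16 (adjusted p = 0.0140) is the difference between these. Among the loci called higher with differences of the same sign in both genotypes, it was the 1 whose difference was larger in size in tcp2tcp4.

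Members of the iron list were called on the lower side. Plant cells short of iron induce bHLH factors of subgroup Ib, ferric reductases and iron transporters, and cells with ample iron make ferritins. Of 11 tested members of the list of iron response and ferritin genes 3 were called lower and none higher, and with the block 5 were called lower and 2 higher. The counts were 4 lower and none higher without the libraries tcp2tcp4 margin 3 and Col-0 margin 1, and 4 lower and 2 higher with the block and without their pools. DESeq2 called 2 lower. The median interaction was −0.67, against −0.01 over all loci tested. Of all loci, 0.107% were called lower, and with the block 3.6% were called lower and 3.99% higher.

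FRO3, a ferric reductase of the vasculature, had 17.9, 17.3 and 17.4 CPM in tcp2tcp4 margin and 25.5, 24.5 and 22.5 CPM in tcp2tcp4 center, against 23.7, 32.0 and 37.2 CPM in Col-0 margin and 16.5, 16.0 and 23.5 CPM in Col-0 center. The margin was below the center in tcp2tcp4 and above it in Col-0, with an interaction of −1.19 ± 0.22 (adjusted p = 0.0153). FRO3 overlaps another gene. OPT3, which loads iron into the phloem, stood at 102, 97.5 and 99.3 CPM in tcp2tcp4 margin and at 110, 117 and 122 CPM in tcp2tcp4 center, against 141, 163 and 182 CPM in Col-0 margin and 114, 117 and 139 CPM in Col-0 center. Its interaction was −0.62 ± 0.13 (adjusted p = 0.0271), with the Col-0 margins above the other 9 libraries.

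BHLH39, a factor of the iron deficiency response in roots and leaves, was near the limit of detection. It had 1, 0 and 0 reads in tcp2tcp4 margin and 1, 4 and 3 reads in tcp2tcp4 center, against 10, 24 and 27 reads in Col-0 margin and 2, 0 and 1 reads in Col-0 center. Scaled to library size the tcp2tcp4 margin held 0.0129 of the Col-0 margin level (95% interval 0.000322 to 0.0748), where the interval covers counting error only. The Col-0 margin had 23.9 times the level of the Col-0 center (7.80 to 119). The fitted interaction of −7.31 ± 1.27 (adjusted p = 0.0140) depends on the prior count at such reads. Reads that also align to its close copy BHLH38 may have been left out of the counts. DESeq2 gave no adjusted p for this gene.

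FRO7, the ferric reductase of chloroplasts, is outside the list and had an interaction of −0.68 ± 0.14 (adjusted p = 0.0377). It averaged 34.2 ± 1.89 CPM in tcp2tcp4 margin and 39.4 ± 3.76 CPM in tcp2tcp4 center, against 64.7 ± 10.13 CPM in Col-0 margin and 46.6 ± 3.73 CPM in Col-0 center. CCH, a copper chaperone, had an interaction of −0.54 ± 0.11 (adjusted p = 0.0252). BTS, a ligase that restrains the iron response, had −0.67 ± 0.19 (adjusted p = 0.132) and was called with the block (adjusted p = 7.61e-08). The genes called higher with the block were the ferritins FER4, at 0.52 ± 0.09 (adjusted p = 8.21e-05), and FER1, at 0.52 ± 0.12 (adjusted p = 0.00221). BTS, FER4 and FER1 were named after their values were seen, and both ferritins overlap another gene. A pair of neighbouring loci on chromosome 1, AT1G47395 and AT1G47400, annotated only as uncharacterized proteins and also picked by their values, had the lowest interactions among called loci after BHLH39, −1.73 ± 0.32 (adjusted p = 0.0153) and −1.67 ± 0.33 (adjusted p = 0.0231).

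The promoters of OPT3 (minus strand, chr4:9250344-9250593) and FRO3 (minus strand, chr1:8153797-8154046), genes of the same list that moved alike, are given as above, with the G-box CACGTG, a site read by bHLH and bZIP factors, in capitals.
OPT3: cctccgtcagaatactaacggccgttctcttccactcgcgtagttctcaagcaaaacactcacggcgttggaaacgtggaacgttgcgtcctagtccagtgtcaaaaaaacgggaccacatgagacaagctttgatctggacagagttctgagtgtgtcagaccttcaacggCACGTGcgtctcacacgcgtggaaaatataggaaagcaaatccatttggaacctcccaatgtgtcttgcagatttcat
FRO3: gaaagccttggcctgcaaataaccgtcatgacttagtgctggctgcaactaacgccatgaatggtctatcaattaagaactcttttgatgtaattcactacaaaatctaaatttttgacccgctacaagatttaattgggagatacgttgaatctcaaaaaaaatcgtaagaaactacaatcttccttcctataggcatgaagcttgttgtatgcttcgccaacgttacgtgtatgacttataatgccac
OPT3 has 1 match and FRO3 none. A match was present in 6 of the 12 promoters of the iron list (50%), in 4 of the 59 loci called higher (6.78%) and in 4 of the 19 called lower (21.1%), against 7.36% of the promoters of all loci tested and 6.49% of all 27443 promoters.

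Phloem genes had interactions below 0. All 9 tested members had values below 0 with a median of −0.50. Of these, 2 were called lower and none higher, and with the block 6 were called lower and none higher. Over all loci, 0.107% were called lower, and 3.6% with the block. Without the libraries tcp2tcp4 margin 3 and Col-0 margin 1 none was called, and with the block and without their pools 4 were. The summed level was 392 to 448 CPM in tcp2tcp4 margin and 344 to 426 CPM in tcp2tcp4 center, against 585 to 639 CPM in Col-0 margin and 385 to 423 CPM in Col-0 center. SULTR1;3 had no read.

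AHA3, the proton pump of companion cells, had 117, 120 and 120 CPM in tcp2tcp4 margin and 98.0, 116 and 116 CPM in tcp2tcp4 center, against 196, 168 and 176 CPM in Col-0 margin and 122, 109 and 110 CPM in Col-0 center. Its interaction was −0.55 ± 0.12 (adjusted p = 0.0432). FTIP1, which moves the flowering signal FT out of companion cells, averaged 8.99 ± 0.958 CPM in tcp2tcp4 margin and 9.75 ± 0.319 CPM in tcp2tcp4 center, against 14.2 ± 1.15 CPM in Col-0 margin and 8.47 ± 1.2 CPM in Col-0 center. The interaction of FTIP1 was −0.84 ± 0.19 (adjusted p = 0.0477). SWEET11, which releases sucrose for phloem loading, and SUC2, which takes it up, were named after their values were seen. Their interactions were −0.81 ± 0.21 and −0.41 ± 0.15 (adjusted p = 0.0857 and 0.260), and both passed with the block (adjusted p = 8.17e-06 and 0.000131).

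Of 17 xylem and secondary wall genes, 15 had values below 0, 1 was called lower and 3 were called lower with the block. Over all loci, 51.5% lay below 0, 0.107% were called lower and 3.6% were called lower with the block. The call was FLA11, a fasciclin-like protein of secondary walls, at 14.6 ± 1.12 CPM in tcp2tcp4 margin and 23.3 ± 1.49 CPM in tcp2tcp4 center, against 19.9 ± 1.18 CPM in Col-0 margin and 21.4 ± 0.469 CPM in Col-0 center. Its interaction was −0.59 ± 0.11 (adjusted p = 0.0210), and it overlaps another gene. The list summed to 170 to 187 CPM in tcp2tcp4 margin and 232 to 256 CPM in tcp2tcp4 center, against 175 to 195 CPM in Col-0 margin and 196 to 214 CPM in Col-0 center. Here the tcp2tcp4 center was the highest group, unlike in the phloem list. Of 9 procambium and HD-ZIP III genes none was called with or without the block or by DESeq2, and 1 had an unadjusted p under 0.05. Other calls on the lower side were SR1, a protein kinase, at −0.57 ± 0.11 (adjusted p = 0.0183), and GGT1, a gamma-glutamyl transpeptidase, at −0.54 ± 0.11 (adjusted p = 0.0271).

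Photosynthesis genes had small values that passed the test when the leaf pool was a block. All 36 light harvesting and photosystem genes had values below 0, between −0.38 and −0.05 with a median of −0.21, where 51.5% of all loci lay below 0. None was called by edgeR without the block or by DESeq2, and 7 had an unadjusted p under 0.05. With the block 32 were called lower and none higher, and 30 without the pools tcp2tcp4 3 and Col-0 1. The median margin minus center difference was 0.05 in tcp2tcp4 and 0.26 in Col-0. Summed levels were 144613 to 158249 CPM in tcp2tcp4 margin and 131403 to 160511 CPM in tcp2tcp4 center, against 185146 to 203575 CPM in Col-0 margin and 161126 to 162432 CPM in Col-0 center.

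PSAH1, a photosystem I subunit and the member of lowest p, had 526, 550 and 554 CPM in tcp2tcp4 margin and 468, 526 and 554 CPM in tcp2tcp4 center, against 669, 719 and 797 CPM in Col-0 margin and 557, 574 and 592 CPM in Col-0 center. Its interaction was −0.27 ± 0.11 without the block (adjusted p = 0.351) and −0.26 ± 0.06 with it (adjusted p = 0.00122), and it overlaps another gene. Of 17 Rubisco and Calvin cycle genes all had values below 0, with a median of −0.15. None was called without the block or by DESeq2, 1 had an unadjusted p under 0.05, and 6 were called lower with the block (3 without the 2 pools). The member of lowest p, PRK, the kinase that regenerates the CO2 acceptor, had −0.22 ± 0.09 (adjusted p = 0.306, and 0.00437 with the block) and overlaps another gene. These lists hold much of the mesophyll RNA, and whether they track the amount of mesophyll in the portions was not tested.

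**Figure D3:**
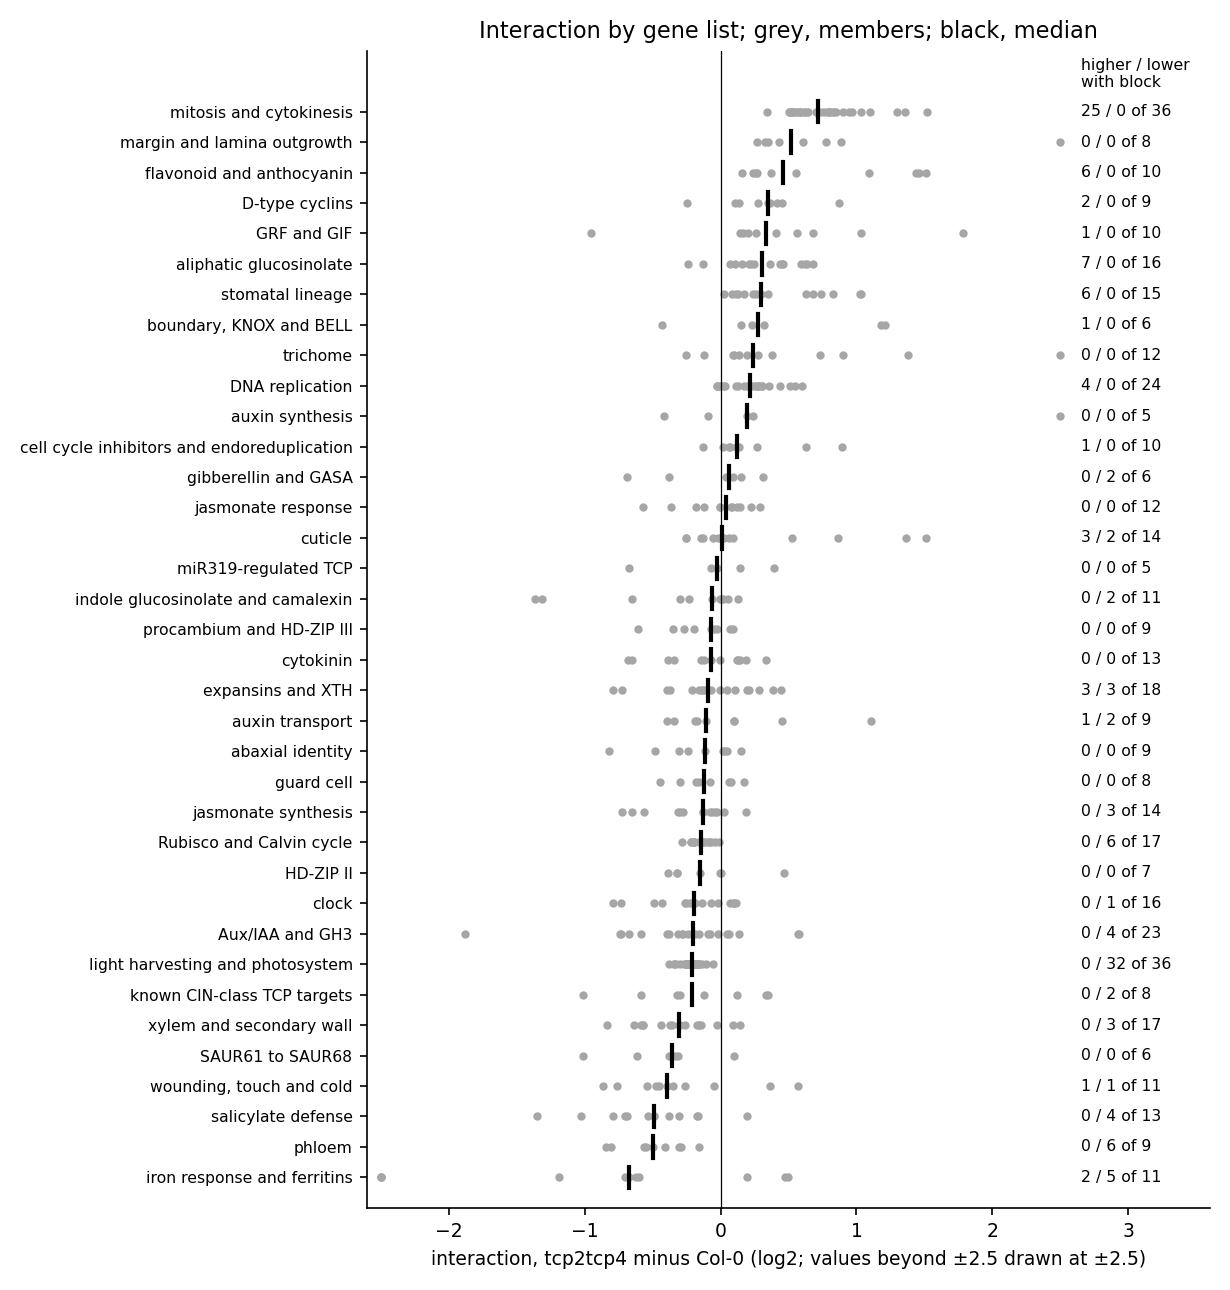
Interaction (log2) of every tested member of 36 gene lists with at least 5 tested members, as grey points, with the median as a black bar and, at the right, the members called higher and lower with the leaf pool as a block. The mitosis list lies wholly above 0 and the light harvesting and phloem lists wholly below it, with medians of 0.72, −0.21 and −0.50.

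In several further lists members were called with the block and not without it. With the block 3.99% of all loci were called higher and 3.6% lower. Of 10 flavonoid and anthocyanin genes all had values above 0 (median 0.46) and 6 were called higher with the block, 4 without the pools tcp2tcp4 3 and Col-0 1. Without the block none was called by edgeR or DESeq2 and 3 had an unadjusted p under 0.05. CHI, chalcone isomerase, was the member of lowest p at 0.55 ± 0.16 (adjusted p = 0.150, and 0.0290 with the block). DFR, which opens the anthocyanin branch and was named after its values were seen, averaged 4.97 ± 5.12 CPM in tcp2tcp4 margin and 6.38 ± 7.15 CPM in tcp2tcp4 center, against 3.55 ± 0.482 CPM in Col-0 margin and 11.4 ± 2.52 CPM in Col-0 center. Its spread between tcp2tcp4 pools exceeded its mean, and its value with the block was 1.35 ± 0.31 (adjusted p = 0.00249).

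Aliphatic glucosinolate genes, which make defense compounds from methionine, had 7 of 16 members called higher with the block (5 without the 2 pools). Without the block or by DESeq2 none was called, and no member reached an unadjusted p under 0.05. The 7 include AT1G31180, isopropylmalate dehydrogenase 3, which the symbol IPMDH1 matched in place of the intended locus AT5G14200. Its value with the block was 0.22 ± 0.07 (adjusted p = 0.0303), and it may not belong to this pathway. MAM1, a chain elongation enzyme named after its values were seen, averaged 45.6 ± 20.6 CPM in tcp2tcp4 margin and 169 ± 54.0 CPM in tcp2tcp4 center, against 28.5 ± 2.15 CPM in Col-0 margin and 170 ± 11.2 CPM in Col-0 center, with 0.69 ± 0.10 in the blocked fit (adjusted p = 4.39e-06). Salicylate defense genes had 4 of 13 called lower with the block (2 without the 2 pools), none without it or by DESeq2, and 2 at an unadjusted p under 0.05. ACD6, a membrane protein that promotes salicylate signaling, had the lowest p, with 12.1, 13 and 7.32 CPM in tcp2tcp4 margin and 49.8, 57.5 and 33.0 CPM in tcp2tcp4 center, against 34.9, 41.5 and 59.4 CPM in Col-0 margin and 49.5, 71.5 and 98.0 CPM in Col-0 center. Levels moved together within each pool, and the interaction was −1.35 ± 0.36 without the block (adjusted p = 0.112) and −1.42 ± 0.11 with it (adjusted p = 9.70e-13).

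Auxin genes gave few calls. For comparison with the counts here, 3.6% of all loci were called lower with the block. Of 23 Aux/IAA and GH3 genes, which respond to auxin, 4 were called lower with the block (3 without the 2 pools) and none without it or by DESeq2 (3 at an unadjusted p under 0.05). IAA19 had 3.87 ± 0.521 CPM in tcp2tcp4 margin and 10.6 ± 0.682 CPM in tcp2tcp4 center, against 5.33 ± 0.767 CPM in Col-0 margin and 8.69 ± 1.07 CPM in Col-0 center, an interaction of −0.73 ± 0.23 (adjusted p = 0.184, and 0.0451 with the block). Of 8 known targets of CIN-class TCP factors 2 were called lower with the block and none without it or by DESeq2, while 1 above and 2 below 0 had an unadjusted p under 0.05. Jasmonate synthesis genes had 3 of 14 called lower with the block (2 without the 2 pools) and none without it or by DESeq2, where none reached an unadjusted p under 0.05. LOX2, the lipoxygenase of that pathway and a known TCP4 target, named after its values were seen, had 356 ± 127 CPM in tcp2tcp4 margin and 261 ± 139 CPM in tcp2tcp4 center, against 635 ± 89.96 CPM in Col-0 margin and 376 ± 57.3 CPM in Col-0 center. Its interaction was −0.26 ± 0.08 with the block (adjusted p = 0.0199).

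In tcp2tcp3tcp4tcp10 the same interaction against Col-0 had 3047 calls (17.2%). It shares the Col-0 libraries with that of tcp2tcp4, so the values of each gene are set side by side and the difference between the mutants was tested directly. That difference, tcp2tcp4 minus tcp2tcp3tcp4tcp10, was called at 515 loci (2.90%), 261 higher and 254 lower. Of the 24 called genes named by the rule, 8 differed between the mutants.

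PEL3 had 1.83 ± 0.30 in tcp2tcp4 and 3.54 ± 0.28 in tcp2tcp3tcp4tcp10, a difference of −1.71 ± 0.27 (adjusted p = 0.00144). MAP65-3 had 1.04 ± 0.17 and 2.08 ± 0.16 in tcp2tcp4 and tcp2tcp3tcp4tcp10, a difference of −1.04 ± 0.15 (adjusted p = 0.000813). The same direction was found for KINESIN-12B (−1.06 ± 0.18, adjusted p = 0.00263), CDC20.1 (−0.88 ± 0.21, adjusted p = 0.0219), CYP86A4 (−1.27 ± 0.29, adjusted p = 0.0181), MLP28 (−1.18 ± 0.19, adjusted p = 0.00136) and TMM (−0.42 ± 0.11, adjusted p = 0.0306). In each of these 7 genes the value was above 0 in tcp2tcp4 and higher in tcp2tcp3tcp4tcp10. CCH was below 0 in tcp2tcp4, at −0.54 ± 0.11, and lower still in tcp2tcp3tcp4tcp10, at −1.17 ± 0.11, with a difference of 0.62 ± 0.11 (adjusted p = 0.00297).

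For EMS1 and FRO7 the mutants had close values. EMS1 had 1.1 ± 0.24 in tcp2tcp4 and 1.16 ± 0.23 in tcp2tcp3tcp4tcp10 (difference −0.06 ± 0.22), and FRO7 had −0.68 ± 0.14 and −0.67 ± 0.15 (difference −0.01 ± 0.15), which does not show that they were equal. In the mitosis list, 20 of 36 members were called lower in tcp2tcp4 than in tcp2tcp3tcp4tcp10 and none higher, where 1.43% of all loci were called lower. In the light harvesting list 10 of 36 were called higher in tcp2tcp4 and none lower, where 1.47% of all loci were called higher. Not every list went the same way in both mutants. The aliphatic glucosinolate list had a median interaction of 0.30 in tcp2tcp4 and −1.05 in tcp2tcp3tcp4tcp10, where 6 of 16 members were called lower than in Col-0 and none higher. Between the mutants, 8 of the 16 were called higher in tcp2tcp4 and none lower.

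**Figure D4:**
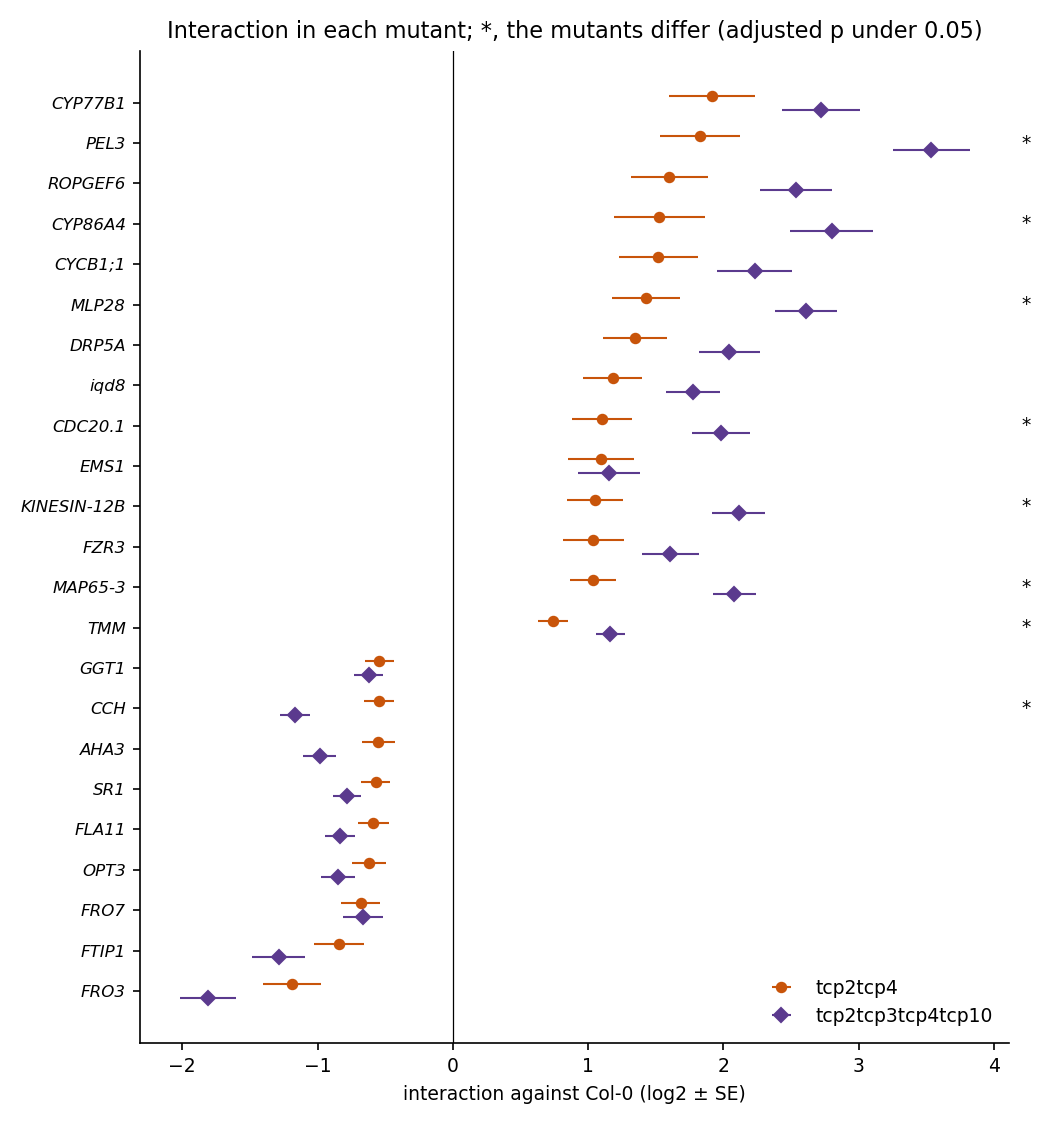
Interaction against Col-0 (log2 ± SE) of 23 called genes in tcp2tcp4 (orange circles) and in tcp2tcp3tcp4tcp10 (purple diamonds), from 1 fit that shares the Col-0 libraries, with a star where the mutants differed at an adjusted p under 0.05. The stars mark 8 genes, among them PEL3 at 1.83 and 3.54 and MAP65-3 at 1.04 and 2.08, and the circles of EMS1 and FRO7 lie next to their diamonds.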

How the data were processed

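Libraries of leaf 5 RNA were prepared with the Illumina TruSeq RNA kit, per the labels' protocols. The tools in the submitters' processing notes are HTSeq 0.7.2, TopHat2 2.0.13 and edgeR 3.8.6, and the build is TAIR10. Neither their roles and options nor the strand and annotation used for counting was given in the sources used here. The table held raw read counts, as the authors deposited them, for 33602 loci, and 5 summary rows were left out of all totals and fits (in the 12 libraries, reads aligned to several places were 4.276% to 15.96%). No column was left unused. In all 32835 loci (97.7%) matched RefSeq's TAIR10.1 table, whose annotation gave names, overlaps and promoters. Reads of overlapping loci are uncertain.

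Counts were fitted in edgeR 4.0.16 under R 4.3.3 and compared by its 2-sided quasi-likelihood test, with TMM, filterByExpr by group (17763 loci), 1 mean per group over all 18 libraries and Benjamini-Hochberg adjustment over all loci, calling at 0.05. SE were derived from the F statistic. With 3 libraries per group the median SE of the interaction was 0.174, and 0.157 with the block, and the biological coefficient of variation was 7.68% and 3.48%. On simulated counts of 17763 loci, 76% of 100 loci set to a log2 interaction of 1 and 100% of 100 loci set to 2 were called, with 6 unchanged loci. The changed loci were drawn only from those averaging over 5 CPM, so recovery at lower levels was not measured. The simulated libraries shared no pool effect, and the groups of the contrast had a common mean before the change.

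The labels do not say that libraries of 1 number came from the same leaves. Over the 5000 most variable loci, margin and center libraries of the same number correlated at 0.196 to 0.384 in their deviations from group means (9 pairs), and those of other numbers at −0.238 to 0.0383, so the number was used as a pair. Deviations from a mean of 3 libraries cancel, so the values of other numbers are tied to those of the same number. They are not a separate comparison. Nothing states that pools were grown separately, so p-values measure the spread between these libraries.

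The 39 lists held 522 loci. Members and lists were chosen with earlier results of these data known, and no list was tested as a set. Named were the 5 miR319-regulated TCP genes, the 12 highest and up to 12 lowest interactions among called loci with a symbol and at least 5 CPM in the highest group mean, up to 2 called members of each list in each direction, and the member of lowest p in a list with no call. Others are marked as named after their values were seen. Alternatives were RLE size factors, DESeq2 1.42.0, no filter, the 12 libraries alone, the replicate block, and leaving out libraries.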

Additional observations from a re-analysis of the deposited data

Results flagged for a closer look

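The interaction against Col-0 differed between the mutants, by a direct test in the same edgeR fit, for 8 of the 24 called genes named by the rule. As tcp2tcp4 minus tcp2tcp3tcp4tcp10 on the log2 scale, the difference was −1.71 for PEL3, −1.27 for CYP86A4, −1.18 for MLP28, −1.06 for KINESIN-12B, −1.04 for MAP65-3, −0.88 for CDC20.1 and −0.42 for TMM. It was 0.62 for CCH. All 8 lay further from 0 in tcp2tcp3tcp4tcp10.

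Outside the gene counts, tcp2tcp4 margin 3 had 15.96% of its reads aligned to several places, above the 8.598% of the highest Col-0 library.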

How the results depend on the processing

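Depth limits genes of few reads such as BHLH39, and 3 libraries per group limit the rest. Against 78 calls (59 higher, 19 lower), DESeq2 gave 131 (94 and 37), no filter on low counts 175 (128 and 47), the fit of the 12 libraries alone 31 (27 and 4), and RLE size factors 78 (57 and 21). The paired fit with the replicate block gave 1347 (708 and 639), and 915 (451 and 464) without the pools tcp2tcp4 3 and Col-0 1. Leaving out 1 library gave between 19 calls (16 higher, 3 lower, without tcp2tcp4 center 2) and 211 (159 and 52, without tcp2tcp4 center 1). Counts were also over 1.5 times lower without tcp2tcp4 margin 1 (36), margin 2 (35) or center 3 (37), and without Col-0 margin 1 (44), margin 3 (44) or center 3 (47). The cause was not tested. All 78 kept their sign in every one of the 19 alternatives. Of 456 values of the 24 called genes named by the rule under these alternatives, 314 were called in the same direction, 142 were not called and 0 reversed. CYP77B1, MAP65-3, PEL3 and TMM were called in every one. All 24 were called with the block, 23 with it and without those pools (not FTIP1), and 16 without the libraries tcp2tcp4 margin 3 and Col-0 margin 1 (not AHA3, CYP86A4, EMS1, FRO7, FTIP1, FZR3, GGT1 and MLP28). In the fit of the 12 libraries alone 8 were called. The value of TCP4, −0.02 and not called, ranged between −0.10 and 0.0872 with 1 library left out, and its sign turned without Col-0 center 2 (0.03), Col-0 margin 1 (0.01), Col-0 margin 3 (0.0064), tcp2tcp4 center 2 (0.09) or tcp2tcp4 margin 2 (0.02). List counts without the 2 libraries or pools were added after seeing the data.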

Other observations

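Loci outside the lists and the rule for named genes, picked by their values, add to the calls. Among called loci, the highest interactions were those of AT5G33370, a GDSL-like lipase, at 2.74 ± 0.50 (adjusted p = 0.0153), and NIG1, a calcium-binding transcription factor, at 2.69 ± 0.59 (adjusted p = 0.0432). AT5G33370 averaged 9.91 ± 2.89 CPM in tcp2tcp4 margin and 6.70 ± 1.88 CPM in tcp2tcp4 center, against 1.65 ± 0.477 CPM in Col-0 margin and 7.13 ± 2.91 CPM in Col-0 center, and it overlaps another gene. ABCB13, a transporter of the P-glycoprotein family, had 3.95 ± 0.715 CPM in tcp2tcp4 margin and 2.22 ± 0.0960 CPM in tcp2tcp4 center, against 1.90 ± 0.177 CPM in Col-0 margin and 4.1 ± 0.753 CPM in Col-0 center, an interaction of 1.96 ± 0.29 (adjusted p = 0.0101).

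Called too, with no list behind them, were histone genes, among them HTA11, HTA6 and HTB2. AT5G59690, AT5G10400 and AT3G53730, annotated as histone superfamily proteins, had 0.42 ± 0.08, 0.49 ± 0.10 and 0.49 ± 0.09 (adjusted p = 0.0169, 0.0293 and 0.0153). HTA11, an H2A histone, had 0.53 ± 0.09 (adjusted p = 0.0109), HTA6 had 0.41 ± 0.09 (adjusted p = 0.0341), and HTB2, an H2B histone, had 0.40 ± 0.08 (adjusted p = 0.0319). HTA11 averaged 56.0 ± 2.29 CPM in tcp2tcp4 margin and 53.5 ± 2.82 CPM in tcp2tcp4 center, against 43.1 ± 0.833 CPM in Col-0 margin and 59.2 ± 1.81 CPM in Col-0 center. Reads that align to several near-identical histone copies may have been left out of the counts.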
